A study of Homo sapiens with 9 samples.

Results

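Axon guidance ligands and receptors were followed as 52 genes of the ephrin, semaphorin, netrin and slit systems in Huh-7, a human hepatocellular carcinoma cell line. The genes were a fixed list of symbols, chosen with earlier results of these data known. Each of the 52 matched 1 identifier among the 60664 genes counted. They comprised 8 Eph receptors, 8 ephrins, 19 semaphorins, 7 plexins, 7 netrins and netrin receptors, 2 slits and ROBO1. The cells were WT Huh-7, a line in which VTRNA1-1 had been knocked out (genotype vtRNA1-1 KO, here 1-1 KO) and a line in which VTRNA1-2 had been knocked out (vtRNA1-2 KO, here 1-2 KO). VTRNA1-1 and VTRNA1-2 encode vault RNAs, small noncoding RNAs named after the vault particle. Both knockouts were made with CRISPR/Cas9, no line received a treatment, and RNA was taken from cells at 80% confluency in complete medium. WT and 1-1 KO cells had been obtained from another laboratory, and the WT cells were then edited and cloned from a single cell to give the 1-2 KO line. Each genotype was 1 line with 3 mRNA libraries, so differences between lines of other origin than the knocked-out gene cannot be told apart from it.

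Guidance molecules steer growing axons and migrating cells, and epithelial and vascular cells use them as well. Eph receptors are receptor tyrosine kinases that bind ephrins on neighbouring cells, and because ephrins are tethered to the membrane, both cells can be signalled to. Semaphorins are secreted or membrane proteins that act through plexins, with neuropilins as coreceptors for most secreted ones. Netrins act through DCC, neogenin and UNC5 receptors, and slits act through roundabout (ROBO) receptors, often to repel cells.

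The members that differed most between the lines were EPHA7, EPHB2, EFNA5 and SEMA5A, each of which was near 0 counts in at least 1 line and well above it in another. The reference promoters of these 4 genes are shown to give the sequence context of the genes that were near 0 in one line and read in another. Each runs from 250 bases before to 50 bases after the annotated start, 5′ to 3′ on the gene's strand, from RefSeq on GRCh38.p14, and CG dinucleotides are in capitals. They lie at chr6:93419510-93419809 on the minus strand for EPHA7, chr5:107670888-107671187 on the minus strand for EFNA5, chr1:22710588-22710887 on the plus strand for EPHB2 and chr5:9546026-9546325 on the minus strand for SEMA5A.
EPHA7: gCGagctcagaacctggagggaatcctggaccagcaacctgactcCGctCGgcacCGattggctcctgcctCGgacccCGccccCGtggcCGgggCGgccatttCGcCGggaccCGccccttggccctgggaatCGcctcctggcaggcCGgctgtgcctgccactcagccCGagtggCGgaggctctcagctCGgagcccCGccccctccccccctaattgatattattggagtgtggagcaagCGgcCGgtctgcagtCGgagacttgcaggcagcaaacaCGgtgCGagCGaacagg
EFNA5: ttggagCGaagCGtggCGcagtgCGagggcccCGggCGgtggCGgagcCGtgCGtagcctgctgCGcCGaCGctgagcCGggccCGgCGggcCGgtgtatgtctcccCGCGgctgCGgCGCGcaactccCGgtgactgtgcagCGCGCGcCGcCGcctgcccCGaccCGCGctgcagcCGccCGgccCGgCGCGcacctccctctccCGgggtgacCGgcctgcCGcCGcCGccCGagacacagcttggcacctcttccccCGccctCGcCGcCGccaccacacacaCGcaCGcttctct
EPHB2: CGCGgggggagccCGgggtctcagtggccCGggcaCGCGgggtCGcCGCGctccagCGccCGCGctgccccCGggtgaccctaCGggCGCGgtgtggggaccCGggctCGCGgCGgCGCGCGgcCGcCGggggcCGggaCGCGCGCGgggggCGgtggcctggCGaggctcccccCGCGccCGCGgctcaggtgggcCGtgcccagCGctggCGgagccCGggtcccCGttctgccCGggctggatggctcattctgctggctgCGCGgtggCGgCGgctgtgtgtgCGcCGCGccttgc
SEMA5A: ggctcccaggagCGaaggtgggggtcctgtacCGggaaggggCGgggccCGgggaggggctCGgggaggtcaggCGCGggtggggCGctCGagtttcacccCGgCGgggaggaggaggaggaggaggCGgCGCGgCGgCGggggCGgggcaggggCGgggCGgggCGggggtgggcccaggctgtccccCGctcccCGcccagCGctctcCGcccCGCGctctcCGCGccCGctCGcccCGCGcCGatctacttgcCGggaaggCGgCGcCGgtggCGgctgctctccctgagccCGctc
These windows held 24 CG dinucleotides for EPHA7, 47 for EFNA5, 49 for EPHB2 and 39 for SEMA5A. Of the 35116 promoters of the same length, which had a median of 14, 33.9% held at least as many as EPHA7, 2.41% as EFNA5, 1.60% as EPHB2 and 8.71% as SEMA5A. Promoters were found for 45 of the 52 members, with a median of 22 and a range of 2 to 54 CG dinucleotides. None was found for EFNB3, SEMA3A, SEMA6A, SEMA6B, UNC5B, UNC5D and NTN1. The 4 shown were therefore not alone in this, since 34 of the 45 members reached the median of all promoters, and EPHB6 with 3 and SEMA3E with 6, which were also higher in 1-2 KO, were among the poorest. The letters TATAAA on either strand were in 1 member's window (2.22%), that of EFNB2, and in 11.5% of all windows. Methylation was not measured here, and these matches describe the reference sequence only.

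The libraries held between 32384469 and 41782387 counts. The targeted genes could not be checked, since mRNA libraries are not made to capture such short RNAs and their 2 genes drew a single count between them, for VTRNA1-1 in WT replicate 1. One library stood apart from its line: 1-2 KO replicate 1 differed from replicates 2 and 3 by a chi-square of 15.3 and 16.2 for each degree of freedom, compared to 2.68 between those replicates. The same value was 5.05, 10.4 and 6.42 for the pairs of WT libraries and 2.08 to 3.48 for those of 1-1 KO. Hepatocyte markers were high in every library, with summed levels of 15000 to 16000 CPM in WT, 31200 to 32100 in 1-1 KO and 21200 to 23200 in 1-2 KO. In these lines, ALB had means of 2530, 9430 and 4740 CPM and AFP of 1760, 8170 and 7420. The higher sum in 1-2 KO than in WT came mainly from these genes. TTR (111 and 71.6), TF (1530 and 1310), FGB (2650 and 2240) and APOB (5460 and 5180) had lower means in 1-2 KO than in WT. APOA1, SERPINA1 and HNF4A had slightly higher ones. Of 5 endothelial markers, TEK and KDR never exceeded 3 counts, with KDR at 0 throughout, CDH5 and VWF had at most 7, and the sum was 7.42 to 8.04 CPM in WT, 6.43 to 7.22 in 1-1 KO and 0.831 to 1.10 in 1-2 KO, mainly PECAM1. Of 5 neuronal markers, 3 were likewise at the floor in each line, while the sum was 13.9 to 14.9 CPM in WT, 16.6 to 17.9 in 1-1 KO and 42.6 to 44.7 in 1-2 KO, mainly through SNAP25, a synaptic membrane fusion protein with means of 6.61, 11.1 and 35.0 CPM. Fibroblast markers summed to 184 to 195 CPM in WT, 279 to 292 in 1-1 KO and 115 to 123 in 1-2 KO, with DCN near 0. The lower sum in 1-2 KO came from LUM (means of 157, 206 and 62.1 CPM), while PDGFRB (1.77, 5.45 and 6.53) and COL1A2 (19.5, 64.9 and 38.4) were higher in both knockouts than in WT. LYZ, a gene of myeloid cells, had means of 113, 102 and 19.2 CPM. The part of these shifts in the results below was not tested.

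Of the 52 members, 46 passed the filter on low counts. The other 6, EPHA4, EFNB1, SEMA4A, UNC5D, DCC and SLIT3, had at most 10 counts in any library, so their changes were not detectable at this depth. Levels are given as CPM, the count of a gene scaled to a common library size after TMM normalization, and a difference was called where edgeR's quasi-likelihood test gave an adjusted p under 0.05 over all 17207 genes tested. In 1-1 KO compared to WT, 14 of the 46 members were higher and 15 lower, or 63.0% called, and among all genes 63.4% were called, 32.5% higher and 30.9% lower. The members as a group were therefore called about as often as genes in general. In such bulk libraries, a change in the share of cells with a transcript and a change in its amount per cell cannot be told apart. In 1-2 KO compared to WT, 24 members were higher and 11 lower, which is 76.1% called with 52.2% higher, compared to 54.4% of all genes called, 28.2% higher and 26.2% lower. In the direct comparison of 1-2 KO with 1-1 KO, 25 were higher and 10 lower (76.1% called, 54.3% higher), beside 65.3% of all genes, 33.1% higher and 32.2% lower.

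The share of large changes was above that of all genes in each comparison. A called change of more than 1 on the log2 scale was seen in 10 members (21.7%) in 1-1 KO compared to WT, against 13.4% of all genes, in 17 members (37.0%) in 1-2 KO compared to WT, against 11.7%, and in 13 members (28.3%) between the knockouts, against 14.1%. The median log2 fold change of the members was 0.06, 0.29 and 0.26 in these comparisons, while that of all genes was between 0.0108 and 0.0194. The list was chosen with earlier results of these data known, so these shares describe the members and do not test them. The filter itself favours members with large changes, because a gene read in 1 line only has to differ in order to pass. Of the 46, 38 reached 0.25 CPM in at least 2 libraries of all 3 lines, 4 did so in 2 lines (EPHB2, EFNB3, SEMA5A and UNC5C) and 4 in 1 line, the 1-2 KO (EPHA7, EPHB6, EFNA5 and SEMA6D). With only the 37 members that had at least 10 counts in every library, 13 were higher and 12 lower in 1-1 KO compared to WT (67.6%, with 67.3% of all such genes), 17 and 9 in 1-2 KO compared to WT (70.3%, with 57.3%), and 16 and 9 in 1-2 KO compared to 1-1 KO (67.6%, with 68.8%). With this filter, the share of members called was above that of all genes for 1-2 KO compared to WT and not for the direct comparison of the knockouts. Changes of more than 1 on the log2 scale were not counted again with this filter. Both knockouts were compared to the same WT libraries, so their values are given side by side without a measure of agreement.

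Among the Eph receptors, the largest changes against WT were rises of EPHA7, EPHB2 and EPHB6, which had few counts in WT, and the most abundant receptor, EPHA2, fell in both knockouts. EPHA2 and EPHB4 made up 77.3% and 20.5% of the summed level of the 8 receptors per length of exon in WT (CPM per kb), and 68.3% and 26.4% in 1-2 KO. EPHA2, an Eph receptor common in epithelial tumours, fell from 224 ± 8.20 CPM in WT (SD, n = 3 here and for other such values) to 197 ± 1.81 in 1-1 KO and 146 ± 4.0 in 1-2 KO. These falls of 0.19 and 0.61 on the log2 scale had adjusted p of 0.000425 and 4.93e-09, and the difference between the knockouts had 1.26e-07. With it, the summed level of the 8 receptors went from 70.0 ± 3.26 CPM per kb in WT to 62.3 ± 0.594 in 1-1 KO and 51.7 ± 1.09 in 1-2 KO. EPHB4, the receptor of ephrin-B2 in vessels, was between 86.7 and 100 CPM in all 9 libraries and was not called in any comparison. EPHB4 overlaps exons of SLC12A9 on the opposite strand, which had 11620 counts compared to 31823 for EPHB4. The SLC12A9 log2 fold changes against WT were -0.57 in 1-1 KO and 0.18 in 1-2 KO, and the part of its reads in the EPHB4 counts was not tested.

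EPHA7, a receptor for ephrin-A ligands (chromosome 6, 93240020 to 93419687, minus strand), was read in 1-2 KO and almost nowhere else. It had 1, 1 and 0 counts in WT, 1, 0 and 1 in 1-1 KO, and 560, 539 and 485 in 1-2 KO, and the groups did not overlap. The 1-2 KO level was 706 times that of WT, with a 95% exact interval of 195 to 5840 that covers counting error only, as all such intervals here do, and 806 times that of 1-1 KO (223 to 6660). The adjusted p was 1.30e-12 against WT and 4.61e-13 against 1-1 KO. EPHA7 passed the filter on low counts through 1-2 KO alone, so the filter favours its rise. Per length it reached 0.788 CPM per kb in 1-2 KO, beside EPHA2 at 35.3, EPHB4 at 13.7 and EPHA1 at 0.952.

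EPHB2, a receptor for ephrin-B ligands (chromosome 1, 22710839 to 22921500, plus strand), was higher in both knockouts. WT libraries had 3, 1 and 1 counts, 1-1 KO had 33, 36 and 54, and 1-2 KO had 224, 175 and 197. All 3 lines were apart from each other. The level in 1-1 KO was 21.6 times that of WT (8.99 to 67.6, adjusted p 4.28e-07) and in 1-2 KO 106 times (45.3 to 329, adjusted p 3.42e-10). The knockouts differed by 2.30 ± 0.17 on the log2 scale (log2 fold change ± standard error, adjusted p 3.19e-08).

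EPHB6, an Eph receptor whose kinase domain is inactive, was at 0.377, 0.107 and 0.159 CPM in WT, 0.142, 0.219 and 0.0981 in 1-1 KO and 1.5, 1.18 and 1.57 in 1-2 KO. Only the 1-2 KO libraries stood apart, by 2.67 ± 0.33 from WT (adjusted p 8.31e-06) and 3.19 ± 0.34 from 1-1 KO (adjusted p 1.34e-06). EPHB6 passed the filter on low counts through 1-2 KO alone, so the filter favours its rise. EPHB3 was between 0.720 and 1.80 CPM in all libraries, and its rises of 0.73 in 1-1 KO and 0.59 in 1-2 KO were called (adjusted p 0.00678 and 0.0287). EPHA4 had 1 count in 1 library and 0 in the other 8.

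EPHA1, an ephrin-A receptor, was the member of the family that fell most in 1-1 KO, with 5.70, 4.96 and 6.82 CPM in WT, 2.36, 2.09 and 1.99 in 1-1 KO and 4.58, 4.39 and 4.44 in 1-2 KO. The log2 fold change was -1.43 ± 0.13 in 1-1 KO (adjusted p 2.25e-07) and -0.38 ± 0.12 in 1-2 KO (adjusted p 0.0139). EPHA1 overlaps exons of ZYX, a focal adhesion protein, on the opposite strand. ZYX had 88463 counts over the 9 libraries and EPHA1 1441, and the ZYX log2 fold changes were -1.77 in 1-1 KO and 0.02 in 1-2 KO. Whether the counting used the strand is not given in the sources used here, so reads of ZYX counted for EPHA1 cannot be told apart from its own, and their part in this fall was not tested.

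**Figure D1:**
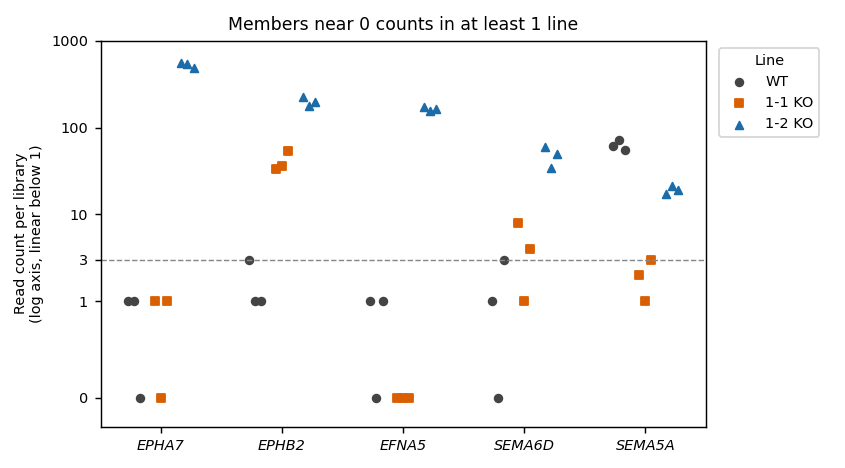
Read counts of 5 members in each of the 9 libraries (points, 3 per line) are on a log axis that is linear below 1, with a dashed line at 3 counts. EPHA7 and EFNA5 are at 0 or 1 count in WT and 1-1 KO and at 156 to 560 in 1-2 KO, EPHB2 lies at a separate level in each line, and SEMA5A is highest in WT.

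Among the ephrins, EFNA1 and EFNA4 had the highest levels per length, and the largest called changes were those of EFNA5 and EFNB3. EFNA5, an ephrin-A that binds several EphA receptors (chromosome 5, 107376894 to 107670937, minus strand), had 1, 0 and 1 counts in WT, 0 in each 1-1 KO library, and 174, 156 and 164 in 1-2 KO. Like its receptor EPHA7, it was read well above the floor in 1-2 KO alone. The 1-2 KO level was 220 times that of WT (60.7 to 1820, adjusted p 1.03e-09) and at least 55.9-fold higher than in 1-1 KO, taking 3 counts per library as the floor (adjusted p 3.33e-10). EFNA5 likewise passed the filter on low counts through 1-2 KO alone, so the filter favours its rise.

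EFNB3, a transmembrane ephrin, was higher in both knockouts, with 0.302, 0.213 and 0.159 CPM in WT, 3.21, 2.70 and 3.8 in 1-1 KO and 3.09, 2.76 and 3.19 in 1-2 KO. The knockout ranges overlapped each other and neither reached the WT range. The log2 fold changes were 3.8 ± 0.22 in 1-1 KO (adjusted p 3.37e-09) and 3.70 ± 0.23 in 1-2 KO (adjusted p 6.49e-09), with a difference between the knockouts of -0.10 ± 0.14 (adjusted p 0.546). EFNB2, the ephrin-B of arteries, was called only in comparisons with 1-2 KO, with 1.97 to 2.66 CPM in WT, 2.06 to 2.22 in 1-1 KO and 3.32 to 3.69 in 1-2 KO (log2 fold change 0.55 against WT, adjusted p 0.00181). The summed level of the 3 ephrin-B genes was 0.545 ± 0.0828 CPM per kb in WT, 1.44 ± 0.159 in 1-1 KO and 1.65 ± 0.0541 in 1-2 KO. EFNB2 made up 87.2% of this sum in WT, and EFNB3 made up 69.8% in 1-1 KO and 56.9% in 1-2 KO. EFNB1 had at most 3 counts in any library.

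The remaining ephrin-A genes moved within narrow limits. EFNA4 was at 6.81 to 9.19 CPM in WT, fell to 5.71 to 6.17 in 1-1 KO (log2 fold change -0.42, adjusted p 0.00257) and was at 9.33 to 10.5 in 1-2 KO (0.32, adjusted p 0.0137). EFNA1, first known as a product of endothelial cells, went from 15.8 to 17.2 CPM in WT to 14.2 to 15 in 1-1 KO and 13.4 to 14.2 in 1-2 KO (log2 fold changes -0.16 and -0.24, adjusted p 0.0354 and 0.00369). EFNA3 was not called at 0.560 to 0.95 CPM. EFNA2 had 502 counts in 1-2 KO replicate 1 and 263 and 275 in replicates 2 and 3, and was not called in any comparison. Without that library its difference between 1-2 KO and 1-1 KO went from 0.07 to -0.26 on the log2 scale (adjusted p 0.0256), and its rise of 0.24 in 1-1 KO was called (adjusted p 0.0224).

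Among the 7 secreted class 3 semaphorins, 4 rose and 1 fell in 1-1 KO compared to WT, and 5 rose and 1 fell in 1-2 KO. The shares called, 71.4% and 85.7%, stand beside 63.4% and 54.4% of all genes. Their summed level was 8.50 ± 0.192 CPM per kb in WT, 13.5 ± 0.347 in 1-1 KO and 11.5 ± 0.213 in 1-2 KO. SEMA3F, a ligand of neuropilin-2 that was first studied as a gene lost in lung cancer, had 7.01, 5.87 and 7.07 CPM in WT, 16.4, 15.9 and 15.4 in 1-1 KO and 18.5, 15.1 and 18.2 in 1-2 KO. Both knockouts lay above all WT libraries, by 1.26 ± 0.09 (adjusted p 3.51e-08) and 1.38 ± 0.09 (adjusted p 1.73e-08). SEMA3B, its neighbour on chromosome 3, had 1.58, 1.36 and 1.62 CPM in WT, 5.27, 4.74 and 4.61 in 1-1 KO and 4.11, 2.79 and 2.32 in 1-2 KO. Its rises were 1.68 ± 0.18 and 1.02 ± 0.19 (adjusted p 1.90e-06 and 0.000429), and 1-2 KO replicate 1 was the highest of its line. SEMA3B overlaps SEMA3B-AS1 on the opposite strand, which had 64 counts in all, compared to 1148 for SEMA3B. SEMA3G, on the same chromosome arm, was called in 1-2 KO only (0.54, adjusted p 0.0153).

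The 4 class 3 genes on the long arm of chromosome 7, between 80742538 and 85187056, did not move together. SEMA3E, the ligand of plexin-D1, had 0.226, 0.347 and 0.254 CPM in WT, 0.284, 0.535 and 0.245 in 1-1 KO and 2.66, 2.61 and 3.04 in 1-2 KO. It rose by 3.31 ± 0.24 in 1-2 KO compared to WT (adjusted p 3.71e-08), while its change in 1-1 KO was 0.36 ± 0.34 (adjusted p 0.375). SEMA3D was higher in 1-1 KO (44.7 to 47.0 CPM) than in WT (24.0 to 24.6) and 1-2 KO (28.1 to 29.5), and its log2 fold changes against WT were 0.92 and 0.26 (adjusted p 4.64e-10 and 0.000274). SEMA3C fell in both knockouts, from 6.28 to 7.60 CPM to 3.24 to 4.06 and 4.32 to 4.57 (log2 fold changes -0.93 and -0.66, adjusted p 3.03e-06 and 8.46e-05). SEMA3A, the first collapsing factor for growth cones to be described, stayed between 19.8 and 25.6 CPM in all libraries and was called only for its 0.19 rise in 1-1 KO (adjusted p 0.00759) and its 0.26 lower level in 1-2 KO than in 1-1 KO (adjusted p 0.000671). The 50 genes nearest to each of the 4 had a median log2 fold change between -0.02 and 0.05 in both knockouts.

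Of the 12 semaphorins of classes 4 to 7, which are bound to the membrane, 11 were tested, and 2 rose and 5 fell in 1-1 KO compared to WT, while 5 rose and 2 fell in 1-2 KO. In each case 63.6% were called, beside 63.4% and 54.4% of all genes. SEMA5A, a class 5 semaphorin with thrombospondin repeats (chromosome 5, 9035033 to 9546075, minus strand), had 62, 72 and 55 counts in WT, 2, 1 and 3 in 1-1 KO and 17, 21 and 19 in 1-2 KO. The lines did not overlap, and 1-1 KO was lowest. WT was 35.9 times the level of 1-1 KO (16.2 to 99.2, adjusted p 4.05e-09), and 1-2 KO was 9.67 times it (4.18 to 27.4, adjusted p 5.25e-06). The log2 fold change of 1-2 KO against WT was -1.89 ± 0.20 (adjusted p 1.72e-06), so that SEMA5A fell in both knockouts and fell further in 1-1 KO.

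Of the 4 class 6 semaphorins, transmembrane ligands of class A plexins, SEMA6A, SEMA6B and SEMA6D were called higher in 1-2 KO than in WT. Among all genes, 28.2% were called higher in that comparison. For 1-1 KO compared to WT, SEMA6B was called higher, while SEMA6A and SEMA6C were called lower, beside 32.5% and 30.9% of all genes. SEMA6D reached 0.25 CPM in at least 2 libraries of 1-2 KO alone, so the filter favours its rise. With 4 genes, these calls describe single genes and not the class. SEMA6B was at 9.17, 9.60 and 13.3 CPM in WT, 21.4, 24.2 and 20.4 in 1-1 KO and 32, 26.5 and 25.8 in 1-2 KO, with rises of 1.05 ± 0.12 and 1.40 ± 0.12 (adjusted p 4.28e-06 and 2.83e-07). SEMA6A was at 15.7, 15.5 and 15.5 CPM in WT, 12.9, 13.8 and 13.9 in 1-1 KO and 30.1, 31.1 and 33.6 in 1-2 KO. Its direction thus differed between the knockouts, with a fall of 0.20 in 1-1 KO (adjusted p 0.00983) and a rise of 1.02 in 1-2 KO (adjusted p 2.98e-09), and the direct difference was 1.22 ± 0.06 (adjusted p 2.64e-10). SEMA6D had 1, 0 and 3 counts in WT, 8, 1 and 4 in 1-1 KO and 60, 34 and 49 in 1-2 KO. The 1-2 KO level was 31.9 times that of WT (12.2 to 119, adjusted p 4.25e-06), and for 1-1 KO the ratio of 2.85 had an interval of 0.880 to 12.0 and was not called (adjusted p 0.189). SEMA6C was between 1.86 and 3.14 CPM and was called only for a fall of 0.38 in 1-1 KO (adjusted p 0.0383).

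In class 4, SEMA4D (CD100), the ligand of plexin-B1, had 4.98, 3.71 and 3.90 CPM in WT, 4.42, 3.99 and 4.85 in 1-1 KO and 8.02, 8.91 and 8.61 in 1-2 KO. Only 1-2 KO stood apart, by 1.02 ± 0.11 from WT (adjusted p 3.46e-06) and 0.95 ± 0.11 from 1-1 KO (adjusted p 3.79e-06). SEMA4F followed it, with 5.50 to 6.86 CPM in WT and 1-1 KO and 10.4 to 12.3 in 1-2 KO (0.83 against WT, adjusted p 2.31e-06). SEMA4C rose by 0.71 in 1-1 KO (adjusted p 1.28e-08) and SEMA4B fell by 0.48 (adjusted p 5.53e-06), and neither was called in 1-2 KO compared to WT. Direct tests between the knockouts were called for both (-0.61 and 0.55, adjusted p 3.90e-08 and 1.03e-06). SEMA4G was the most abundant semaphorin per length in each line (36.3% of the summed level in WT), lay between 71.0 and 81.6 CPM and was not called in any comparison. It overlaps MRPL43 on the opposite strand, which had 14064 counts compared to 27367. SEMA7A, which is anchored by a lipid and binds plexin-C1 and integrins, fell in both knockouts (-0.54 and -0.66, adjusted p 0.00222 and 0.00069), and SEMA4A had 2 to 10 counts per library.

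Plexins, the semaphorin receptors, had the highest summed level of the families, and their changes were small in size though often called. Their summed level was 95.9 ± 6.42 CPM per kb in WT, 93.3 ± 1.34 in 1-1 KO and 104 ± 4.02 in 1-2 KO, with PLXNB2 at 58.8% of it in WT. Of the 7, 5 were called in 1-1 KO and 4 in 1-2 KO compared to WT (71.4% and 57.1%, beside 63.4% and 54.4% of all genes) and all 7 between the knockouts (65.3% of all genes), and no change exceeded 1 on the log2 scale. PLXNA1 rose in both knockouts, from 84.2 to 96.2 CPM in WT to 111 to 115 in 1-1 KO and 153 to 157 in 1-2 KO (log2 fold changes 0.35 and 0.80, adjusted p 1.09e-05 and 2.86e-09). PLXNC1, the receptor of SEMA7A, moved in opposite directions, with 84.4 to 89.1 CPM in WT, 114 to 117 in 1-1 KO and 69.3 to 72.9 in 1-2 KO (0.42 and -0.29, adjusted p 1.21e-07 and 1.02e-05). PLXND1, the receptor of SEMA3E, fell to 46.7 to 48.1 CPM in 1-1 KO from 69.9 to 77.9 in WT (-0.62, adjusted p 1.78e-08) and was at 76.5 to 79.6 in 1-2 KO (0.10, adjusted p 0.064). PLXNA2 fell in both knockouts (-0.65 and -0.22, adjusted p 4.68e-07 and 0.00707). PLXNA3, PLXNB1 and PLXNB2 had log2 fold changes between -0.30 and 0.18 against WT, of which the fall of PLXNB1 by 0.17 in 1-1 KO and that of PLXNA3 by 0.30 in 1-2 KO were called (adjusted p 0.0104 and 0.012). PLXNA3 overlaps LAGE3 and PLXNC1 overlaps CEP83 on the opposite strand.

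Among netrins and their receptors, UNC5B and NEO1 rose in 1-2 KO and NTN1 fell in 1-1 KO. UNC5B, a netrin receptor of endothelial cells that can also mediate cell death (chromosome 10, 71212570 to 71302864, plus strand), had 2.69, 2.61 and 3.55 CPM in WT, 10.2, 9.26 and 8.75 in 1-1 KO and 31.2, 34.3 and 36.1 in 1-2 KO. The 3 lines did not overlap. The rises against WT were 1.69 ± 0.11 in 1-1 KO (adjusted p 1.21e-08) and 3.53 ± 0.10 in 1-2 KO (adjusted p 3.46e-12), and the knockouts differed by 1.85 ± 0.09 (adjusted p 3.04e-10). Per length, UNC5B went from 0.431 CPM per kb in WT to 4.95 in 1-2 KO, where it was the most abundant of the 7 genes (35.9% of their sum).

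NEO1 (neogenin), a receptor of netrins and repulsive guidance molecules, had 13.7, 12.3 and 13.4 CPM in WT, 14.5, 14.3 and 13.5 in 1-1 KO and 29.3, 33.3 and 34.5 in 1-2 KO. It rose by 1.30 ± 0.07 in 1-2 KO compared to WT (adjusted p 1.85e-09) and was not called in 1-1 KO (0.10 ± 0.07, adjusted p 0.258). NTN1, the founding secreted netrin, had 16.4, 15.2 and 17.7 CPM in WT, 6.36, 6.86 and 6.99 in 1-1 KO and 19.1, 19.0 and 18.5 in 1-2 KO. The fall in 1-1 KO was 1.29 on the log2 scale with a standard error of 0.07 (adjusted p 2.02e-09), and the rise in 1-2 KO was 0.20 ± 0.07 (adjusted p 0.0192). NTN4, a netrin of basement membranes, moved the other way, with 0.24 in 1-1 KO (adjusted p 0.0235) and -0.75 in 1-2 KO (adjusted p 5.57e-06). The summed level of the 7 genes was 7.81 ± 0.373 CPM per kb in WT, 7.94 ± 0.274 in 1-1 KO and 13.8 ± 0.510 in 1-2 KO.

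The rarer netrin receptors stayed low. UNC5C had 20, 13 and 3 counts in WT, 15, 14 and 16 in 1-1 KO and 3, 4 and 2 in 1-2 KO, so that WT replicate 3 lay within the 1-2 KO range. It was called as lower in 1-2 KO than in WT (-2.11 ± 0.56, adjusted p 0.00548) and than in 1-1 KO (-2.25 ± 0.54, adjusted p 0.00205). UNC5D had 0, 2 and 0 counts in WT, 4, 3 and 1 in 1-1 KO and 0, 2 and 0 in 1-2 KO, and the ratio of 1-1 KO to WT of 3.51 had an interval of 0.70 to 33.9. DCC, the main netrin receptor of commissural axons, had 0 to 5 counts per library in every line.

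In the slit system, SLIT2 rose in both knockouts and ROBO1, its receptor, fell in 1-1 KO. SLIT2, a secreted repellent (chromosome 4, 20251905 to 20620561, plus strand), had 9.17, 9.36 and 11.0 CPM in WT, 31.9, 32.8 and 30.9 in 1-1 KO and 28.5, 27.6 and 28.4 in 1-2 KO. Its log2 fold changes were 1.70 ± 0.07 (adjusted p 4.83e-11) and 1.52 ± 0.07 (adjusted p 1.79e-10). ROBO1 (chromosome 3, 78597239 to 79767998, minus strand) was among the most abundant members, with 233, 228 and 237 CPM in WT, 137, 143 and 136 in 1-1 KO and 276, 280 and 275 in 1-2 KO. It fell by 0.75 in 1-1 KO (adjusted p 2.35e-10), rose by 0.25 in 1-2 KO (adjusted p 1.77e-05), and the knockouts differed by 1.00 ± 0.03 (adjusted p 8.30e-12). Per length, SLIT2 went from 0.889 CPM per kb in WT to 2.88 in 1-1 KO and 2.54 in 1-2 KO, while ROBO1 went from 21.1 to 12.5 and 25.1. SLIT3 had at most 2 counts in any library.

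**Figure D2:**
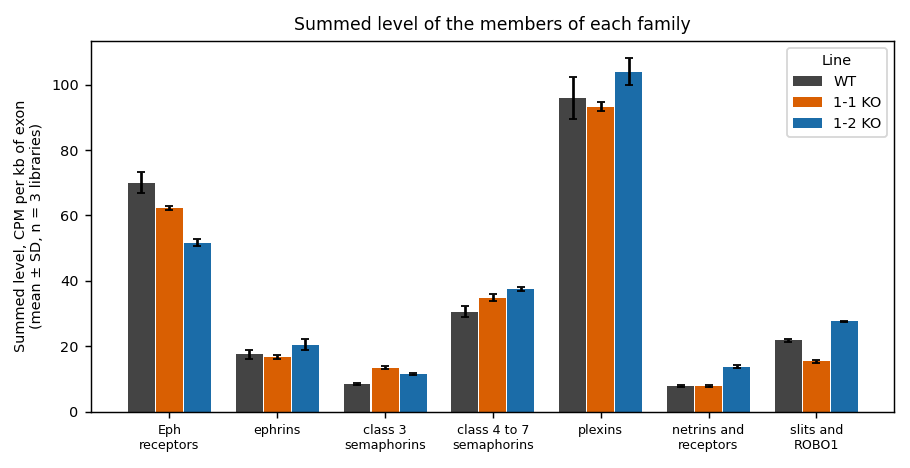
Bars give the summed level of the members of each family as CPM per kb of exon, as the mean over 3 libraries with the SD as error bars, for WT and both knockouts. Eph receptors are at 70.0 in WT and 51.7 in 1-2 KO, while netrins with their receptors are at 7.81 in WT and 13.8 in 1-2 KO.

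In all, 4 members were lower in 1-1 KO and higher in 1-2 KO than in WT (EFNA4, NTN1, ROBO1 and SEMA6A), and 2 were higher in 1-1 KO and lower in 1-2 KO (NTN4 and PLXNC1), each with a called difference between the knockouts. A further 9 were not called in 1-1 KO and were higher in 1-2 KO than in either other line (EPHA7, EPHB6, EFNA5, EFNB2, NEO1, SEMA3E, SEMA4D, SEMA4F and SEMA6D). Of these, EPHA7, EPHB6, EFNA5 and SEMA6D reached 0.25 CPM in at least 2 libraries of 1-2 KO alone, so the filter favours this pattern for them. Higher in both knockouts were 10 members, of which EPHB2, PLXNA1, SEMA6B and UNC5B were higher still in 1-2 KO than in 1-1 KO, SEMA3B, SEMA3D and SLIT2 were lower in 1-2 KO than in 1-1 KO, and the knockouts did not pass the test of their difference for EFNB3, EPHB3 and SEMA3F. Lower in both were 7, namely EPHA2, EFNA1, SEMA7A, EPHA1, PLXNA2, SEMA3C and SEMA5A. No comparison called EFNA2, EFNA3, EPHB4 or SEMA4G. Of all genes, 63.4% were called in 1-1 KO and 54.4% in 1-2 KO compared to WT, and 65.3% between the knockouts. Shares of all genes with the joint patterns above were not computed, and both knockouts share the same WT libraries.

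Other genes of these families that were not members were counted as well, from a list of 23, of which 9 were tested, with 4 called in 1-1 KO compared to WT, each of them higher, and 5 higher and 2 lower in 1-2 KO. The shares called, 44.4% and 77.8%, stand beside 63.4% and 54.4% of all genes. The coreceptor NRP1 had 259 to 262 CPM in WT, 250 to 260 in 1-1 KO and 179 to 194 in 1-2 KO, and fell by 0.46 in 1-2 KO (adjusted p 1.06e-07). NRP2, through which SEMA3F acts, rose from 24.8 to 25.6 CPM in WT to 42.8 to 46.2 in 1-1 KO and 54.9 to 57.7 in 1-2 KO (0.84 and 1.16, adjusted p 1.41e-09 and 5.53e-11). Both neuropilins thus moved in 1-2 KO, in opposite directions. ROBO2, a second slit receptor, had 0.571 to 1.23 CPM in WT, 5.29 to 5.81 in 1-1 KO and 9.80 to 10.7 in 1-2 KO (2.52 and 3.45, adjusted p 9.57e-09 and 2.69e-10). EPHA6 went from 4 or 5 counts per library in WT to 35 to 41 in 1-1 KO and 48 to 55 in 1-2 KO (2.88 and 3.34, adjusted p 4.06e-07 and 6.79e-08).

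Members that lie close together were set beside their surroundings, as the median log2 fold change of the 50 nearest tested genes. EFNA1, EFNA3 and EFNA4 lie within 155063737 to 155134899 on chromosome 1, where this median was -0.70 in 1-1 KO compared to WT, and the 3 members had -0.16, 0.47 and -0.42. They thus lay above their surroundings, and so did SEMA6C, also on chromosome 1, with -0.38 beside -0.56. SEMA4C, at 0.71, was next to a median of 0.73. Around the members with called changes over 1 in either knockout, this median was between -0.42 and 0.31. EPHB2 had -0.12 and -0.17 around it in the 1-1 and 1-2 knockouts, EPHA7 -0.24 in 1-2 KO, EFNA5 -0.01 in 1-2 KO, SEMA5A 0.10 in 1-1 KO, UNC5B -0.13 and -0.18, and SLIT2 -0.33 and -0.42. The surroundings had the sign of the member for EPHA1 in 1-1 KO (-0.33 beside -1.43) and for SEMA6B (0.31 beside 1.05 in 1-1 KO and 0.21 beside 1.40 in 1-2 KO), among others. With the median of the neighbours subtracted, calls of small changes were lost for EPHA2 (adjusted p 0.0622), PLXNA1 (0.535) and SEMA7A (0.102) in 1-1 KO compared to WT, for EFNA1 (0.287), ROBO1 (0.214), PLXNA3 (0.0647), PLXNC1 (0.95) and NTN1 (0.206) in 1-2 KO compared to WT, and for PLXNA2 (0.122), EFNA4 (0.0858), SEMA4C (0.268), SLIT2 (0.237), EFNB2 (0.408) and PLXNB2 (0.566) between the knockouts. Calls in 1-1 KO compared to WT were also lost for SEMA6C (0.18, adjusted p 0.32) and SEMA4C (-0.03, 0.654). EFNA1 and EFNA4 turned from called falls to called rises there (0.54 and 0.28, adjusted p 3.4e-06 and 0.0321). EPHB4 was then called in each comparison, with 0.24 in 1-1 KO and -0.26 in 1-2 KO compared to WT and -0.51 between the knockouts (adjusted p 0.000419, 0.000276 and 3.38e-07), and so was EFNA3, with 1.16, 0.59 and -0.58 (0.000173, 0.0242 and 0.0152). Calls were also gained for NEO1 (0.50, adjusted p 4.39e-05), PLXNA3 (0.25, 0.0238) and SEMA4G (0.17, 0.0133) in 1-1 KO and SEMA4G (0.20, 0.00502) in 1-2 KO compared to WT, and for EFNA1 (-0.63, 7.14e-07), SEMA7A (-0.43, 0.0131) and EFNA2 (0.63, 0.00645) between the knockouts.

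**Figure D3:**
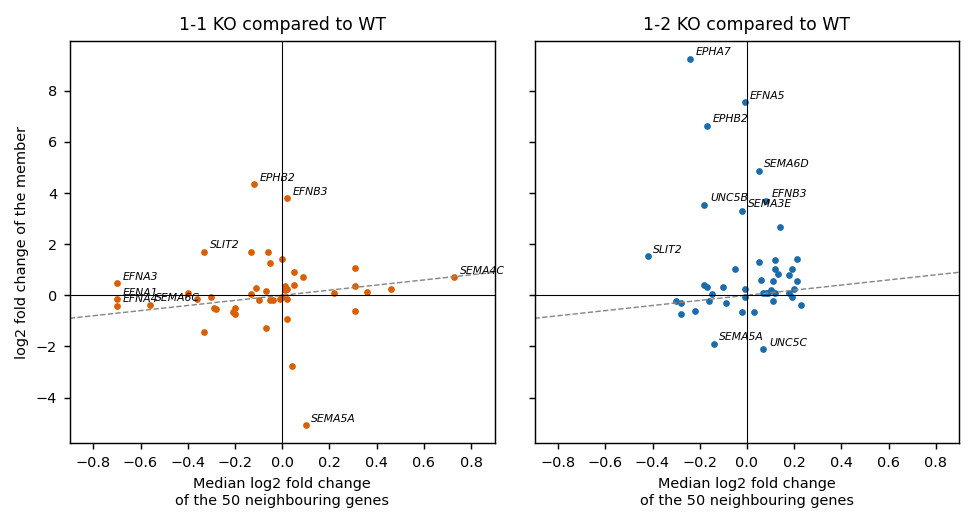
Each point is a tested member, with the median change (log2) of the 50 genes around it on the horizontal axis and its own log2 fold change on the vertical axis, for 1-1 KO (left) and 1-2 KO (right) compared to WT. The dashed line marks equality. SEMA4C lies on it at 0.71 beside 0.73, while EPHA7, EFNA5 and EPHB2 lie far above it.

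Some calls with small changes depended on single libraries. In 1-1 KO compared to WT, EFNA1 was no longer called without any one of the 1-1 KO libraries or WT replicate 3 (adjusted p 0.0516 to 0.135), SEMA6C without 1-1 KO replicates 1 or 3 or WT replicate 1 (0.101 to 0.183), NTN4 without 1-1 KO replicates 2 or 3 or WT replicates 2 or 3 (0.056 to 0.112), PLXNB1 without WT replicate 1 (0.0574) and SEMA6A without 1-1 KO replicate 1 (0.0531). PLXNA3 became called without 1-1 KO replicate 2 (0.0425). In 1-2 KO compared to WT, EPHB3 was lost without 1-2 KO replicates 2 or 3 or WT replicates 1 or 2 (0.0516 to 0.137), SEMA3G without 1-2 KO replicates 2 or 3 or WT replicate 2 (0.0552 to 0.0822), EFNA4 without WT replicate 1 (0.0786), EPHA1 without WT replicate 3 (0.0551), PLXNA3 without 1-2 KO replicate 3 (0.0597) and NTN1 without WT replicate 2 (0.0974). Called only with a library left out were PLXNB1 without WT replicate 1 (0.043), PLXND1 and PLXNB2 without WT replicate 3 (0.0171 and 0.0259) and EFNA2 without 1-2 KO replicate 2 (0.0458). Between the knockouts, SEMA3C was lost without any of 7 libraries, all but 1-1 KO replicate 1 and WT replicate 2 (0.0556 to 0.197), PLXNB2 without 1-1 KO replicates 1 or 3 or 1-2 KO replicate 1 (0.0715 to 0.0834), SEMA6B without 1-1 KO replicates 1 or 3 (0.0511 and 0.0639) and SLIT2 without 1-1 KO replicate 2 or 1-2 KO replicate 2 (0.0698 and 0.0568). SEMA3F became called without 1-2 KO replicate 2 (0.036) and SEMA3G without 1-2 KO replicate 1 (0.0429). With DESeq2's Wald test in place of edgeR, EFNA1, SEMA6C and NTN4 were not called in 1-1 KO compared to WT (adjusted p 0.0701, 0.103 and 0.052), EPHB3 and NTN1 not in 1-2 KO compared to WT (0.0953 and 0.062) and SEMA3C not between the knockouts (0.131). With library sizes alone, EFNA1, SEMA6C and PLXNB1 were lost in 1-1 KO compared to WT (0.128, 0.074 and 0.0588), while EFNA3 and PLXNA3 were called there (0.0351 and 0.0415) and SEMA4C and PLXND1 in 1-2 KO compared to WT (0.0204 and 0.00731). The changes of EPHA7, EPHB2, EFNA5, EFNB3, SEMA5A, UNC5B and NEO1 kept their calls without each library and with each of these alternatives.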

How the data were processed

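Stranded mRNA libraries, 3 per line, had been made from total RNA of WT Huh-7 cells and of both knockouts. Per the labels and the methods of the study, the authors used STAR to align the reads to GRCh38 and featureCounts to assign them to genes, and what they deposited are raw counts that were not normalized. The versions of both tools, the strand setting and the treatment of reads with several matches are not given in the sources used here. That the 3 libraries of a line came from separate cultures is not stated in the labels, so the p-values measure the spread between these libraries.

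Symbols and positions came from GENCODE 44, which held 60463 of the 60664 identifiers. The other 201 held 0.0192% of the counts. All 9 libraries entered 1 edgeR 4.0.16 fit (R 4.3.3) with TMM normalization and filterByExpr (at least 10 counts, at least 15 in total). Quasi-likelihood tests were followed by Benjamini-Hochberg adjustment over 17207 genes. The biological coefficient of variation was 5.55%. CPM per kb divides CPM by the summed length of a gene's exons. A gene with at most 3 counts in every library of a line was treated as at the floor, and ratios against such a line are ratios of counts with exact 95% binomial intervals. Tables and plots were made with matplotlib 3.10.9, scipy 1.17.1, numpy 2.4.6 and pandas 2.3.3 under Python 3.11.15.

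The members and lists were chosen with earlier results of these data known. Values in every library are given for members at the floor in 1 or 2 lines and for members with a called log2 fold change over 1, and other members by their range. Of the further lists, NRP1, NRP2 and the 3 genes with the smallest adjusted p per list and knockout are named, apart from results that are not reported here. Alternatives were DESeq2 1.42.0, edgeR with DESeq2's size factors or with library sizes only, no filter, at least 10 counts in every library, only the 2 lines compared, a replicate block, an adjusted p under 0.01, subtraction of the neighbours' median and leaving out each library.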

Additional observations from a re-analysis of the deposited data

How the results depend on the processing

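The counts of members called higher or lower in the 3 comparisons stayed within 1.5 times of their values under every alternative run, apart from members higher in 1-2 KO than in 1-1 KO, which went from 25 to 16 when only genes with at least 10 counts in every library were tested. That filter tests fewer members, 37 in place of 46. Leaving out each library gave 13 to 15 members higher and 12 to 15 lower in 1-1 KO compared to WT, 21 to 26 and 10 to 11 in 1-2 KO compared to WT, and 22 to 25 and 9 to 11 in 1-2 KO compared to 1-1 KO. Subtracting the median of the 50 neighbouring genes reversed the sign of 5 single changes, all in 1-1 KO compared to WT: EFNA4 went to 0.28, EFNA1 to 0.54, SEMA6C to 0.18, SEMA4C to -0.03 and EPHB4 to 0.24. SEMA6C and SEMA4C were not called after the subtraction (adjusted p 0.32 and 0.654), and EPHB4 was not called before it. For EFNA2 in 1-2 KO compared to 1-1 KO, leaving out libraries gave -0.26 to 0.22. The cause was not tested. Signs of differences that neither fit called were not counted as reversed. Scaling by library size alone moved the median of all genes to at most 0.075 on the log2 scale. Same-numbered libraries did not deviate together from the means of their lines (r between -0.353 and 0.182). Libraries of different number had r between -0.339 and 0.459. With 3 libraries per line, such deviations depend on each other, so whether the numbers pair the libraries cannot be told. With the replicate number as a block, 14 members were higher and 14 lower in 1-1 KO compared to WT, 24 and 11 in 1-2 KO compared to WT, and 25 and 10 in 1-2 KO compared to 1-1 KO, and the 1 call lost was the fall of EFNA1 in 1-1 KO (adjusted p 0.0553). In the main fit, 63.4%, 54.4% and 65.3% of all genes were called in these comparisons. Such shares were not computed for the block or for leaving out libraries, so these counts do not set the members apart from genes in general. Members with under about 10 counts per library are limited by depth, as their intervals show.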

Other observations

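Proteins that act below these receptors were counted from a list of 53 genes, of which 51 were tested: 19 rose and 21 fell in 1-1 KO compared to WT (78.4% called), and 19 rose and 16 fell in 1-2 KO (68.6% called), beside 63.4% and 54.4% of all genes. A called change of more than 1 on the log2 scale was seen in 1 of them in 1-1 KO and 2 in 1-2 KO (1.96% and 3.92%, beside 13.4% and 11.7% of all genes). These 2 were collapsin response mediator proteins, which bind tubulin and relay semaphorin signals. DPYSL3 had 11.8 to 12.8 CPM in WT, 19.6 to 21.4 in 1-1 KO and 81.6 to 89.9 in 1-2 KO, a rise of 2.79 ± 0.06 in 1-2 KO (edgeR, adjusted p 8.91e-14). DPYSL5 had 8.67 to 9.57 CPM in WT, 21.5 to 23.2 in 1-1 KO and 51.7 to 55.6 in 1-2 KO, with rises of 1.30 ± 0.06 and 2.56 ± 0.06 (adjusted p 2.79e-10 and 3.12e-13). DPYSL2, CRMP1 and the MICAL genes of the same group had log2 fold changes between -0.70 and 0.83.

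In 1-1 KO, ENAH, an actin regulator that acts below ROBO and netrin receptors, fell from 508 to 527 CPM in WT to 285 to 286 (-0.86, adjusted p 6.54e-11) and was at 523 to 557 in 1-2 KO (0.06, adjusted p 0.145). TRIO, a guanine nucleotide exchange factor used by netrin signalling, fell from 130 to 133 CPM to 77.7 to 78.1 in 1-1 KO (-0.75, adjusted p 8.35e-11) and by 0.14 in 1-2 KO (adjusted p 0.0011). ERBB2, whose product can associate with plexin-B receptors, had the same adjusted p as DPYSL5 in 1-1 KO and rose by 0.87 there (adjusted p 2.79e-10).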
